A study of Mus musculus with 29 samples.

Results

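The subject is the healthy aortic arch of wild-type mice: 10 RNA-seq libraries of 29 in the series, whose titles number them 20 to 29. The libraries were divided by that number into a low set (20 to 24, 5 libraries) and a high set (25 to 29, 5 libraries). Of 51456 listed genes, 12809 reached 1 in 5 or more of the 10 and entered the comparison. The other 19 libraries are numbered 1 to 9 and 10 to 19 and come from 2 groups of diseased mice. All mice were male C57BL/6 animals, labelled as 14 weeks old and fed a certified chow. Wild-type (WT) mice carried an osmotic pump with vehicle and received vehicle injections. The diseased mice lacked apolipoprotein E (ApoE KO) in all cells, a background prone to atherosclerosis, and carried a pump with angiotensin II (AngII), a pressor peptide (15.27 mg/mL delivered at 0.11 µL/hr). Of these, 9 libraries came from mice given vehicle and 10 from mice given Scl-Ab, an antibody to the Wnt antagonist sclerostin, at 10 mg/kg weekly for 4 weeks. Each arch was flushed, its adventitial fat was scraped away and it was snap-frozen before RNA extraction. The labels name 9 WT mice and the series holds 10 WT libraries, so n counts libraries, and the spread between them may be partly technical.

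The division was selected on the FPKQ values of these same libraries, seen across all genes. Differences between the WT sets and slopes on the WT number are therefore given as descriptions, without p-values. Tests were made in the diseased groups, whose libraries had no part in that choice. The labels do not say what the title number stands for, and the hour of tissue collection is not given in the sources used here. The number runs in consecutive blocks by group, so across groups number and treatment cannot be told apart.

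The mammalian circadian clock is a transcriptional loop that runs in most cells, including vascular smooth muscle and endothelium. ARNTL (BMAL1) pairs with CLOCK or NPAS2 at E-box elements and drives the Per, Cry and Nr1d genes, whose products repress it. NR1D1 and NR1D2 compete with ROR receptors at ROR elements, through which Arntl and Nfil3 are controlled. The PAR bZIP factors DBP, TEF and HLF drive, and NFIL3 represses, genes with D-box elements. Because of this wiring, Arntl and its targets are highest at opposite times of day.

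The promoters of 4 genes with large differences between the WT sets are shown, chosen because they hold matches to elements of the loop just described. They are RefSeq windows of 300 bases, from 250 before to 50 after the start, on build GRCm38.p6, written 5′ to 3′ along the gene. Ciart (chr3:95882179-95882478, minus strand) has E-boxes (CACGTG) in capitals. Per3 (chr4:151044616-151044915, minus strand) has D-boxes (TTANGTAA). Arntl (the second of 2 windows, chr7:113207261-113207560, plus strand) and Nfil3 (chr13:52980990-52981289, minus strand) have the core of the ROR element, TAGGTCA or its reverse complement. The first Arntl window has no match to this core.
Ciart: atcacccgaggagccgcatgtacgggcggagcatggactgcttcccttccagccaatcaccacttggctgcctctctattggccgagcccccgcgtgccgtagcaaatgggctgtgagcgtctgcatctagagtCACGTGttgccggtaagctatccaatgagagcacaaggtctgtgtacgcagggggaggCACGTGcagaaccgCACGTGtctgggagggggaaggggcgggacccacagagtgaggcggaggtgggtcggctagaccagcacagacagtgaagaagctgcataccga
Per3: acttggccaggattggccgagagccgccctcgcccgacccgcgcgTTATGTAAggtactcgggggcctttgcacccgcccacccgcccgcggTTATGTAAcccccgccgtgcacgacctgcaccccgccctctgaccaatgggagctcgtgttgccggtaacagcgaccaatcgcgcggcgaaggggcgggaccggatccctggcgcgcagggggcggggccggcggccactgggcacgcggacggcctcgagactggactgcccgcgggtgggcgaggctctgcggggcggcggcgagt
Arntl: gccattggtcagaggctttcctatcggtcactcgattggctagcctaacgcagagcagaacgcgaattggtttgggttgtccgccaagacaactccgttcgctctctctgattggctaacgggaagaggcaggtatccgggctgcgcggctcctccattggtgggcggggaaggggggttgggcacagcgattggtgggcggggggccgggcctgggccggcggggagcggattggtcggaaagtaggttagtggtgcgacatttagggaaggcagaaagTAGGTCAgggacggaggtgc
Nfil3: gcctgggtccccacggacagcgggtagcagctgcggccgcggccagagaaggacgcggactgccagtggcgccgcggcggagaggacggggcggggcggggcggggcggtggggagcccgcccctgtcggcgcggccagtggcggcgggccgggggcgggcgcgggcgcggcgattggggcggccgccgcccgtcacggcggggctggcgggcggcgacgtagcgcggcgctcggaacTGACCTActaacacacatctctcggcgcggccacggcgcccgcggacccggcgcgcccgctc

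Of the 28 clock genes listed, 24 matched 32 promoter windows, and 6 motif forms were searched on both strands. CACGTG was in 25% of the clock windows, 7.15% of all 32851 windows and 9.84% of the 12137 windows of tested genes. TTANGTAA was in 3.12%, 2.32% and 1.42%, Per3 being its sole clock gene. The ROR element was first searched as TNGGTCA, which was in 21.9% of the clock windows, 11% of all windows and 9.58% of those of tested genes. The narrower TAGGTCA, every match of which is also a match of TNGGTCA, was added after those shares had been seen. It was in 9.38% of the clock windows (Arntl, Nfil3 and Leo1), 2.61% of all windows and 1.80% of those of tested genes. A glucocorticoid element and a heat shock element, each as 1 consensus form, were in none of the clock windows and in 0.475% and 0.603% of all windows, and in 0.330% and 0.511% of those of tested genes. Among genes called on the WT slope, described further on, the same 6 forms were counted in 769 windows of genes with positive slopes and 723 of genes with negative slopes, to be read beside the shares of tested genes. CACGTG was in 11.1% and 8.30%, TTANGTAA in 2.34% and 1.94%, TNGGTCA in 11.1% and 10.9%, and TAGGTCA in 2.60% and 1.94%. The glucocorticoid element was in 0.130% and 0.692% (1 and 5 windows), and the heat shock element in 0.520% and 0.968%. A match of letters in a window is a description and not evidence of binding.

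Values are in FPKQ, the name of the deposited column. It is not spelled out in the files and was treated as a value per gene length and library, like FPKM. The depth in reads is unknown. The 85th percentile of the values lay between 6.99 and 7.15 in the 10 WT libraries. Smooth muscle markers were high in each WT library. Myh11, the smooth muscle myosin heavy chain, was at 1229, 1296, 1221, 1173 and 1096 in libraries 20 to 24 and 1139.8, 1235, 1278, 1149 and 1145 in libraries 25 to 29. The sets overlapped for Myh11, with a log2 difference of -0.02 (SE 0.05). B and T cell markers were near 0: none of 14 reached the minimum. Adipocyte markers were present in amounts that differed several-fold between libraries. In a principal component analysis, libraries 20 and 21 stood apart, at -35.1 and -26.2 on the first component (44.7% of variance) against -3.04 to 21.8 for the other 8. Values without them are given for some of the genes and lists. Where no such value is given, the result may still have changed when they were left out.

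Over the WT libraries clock genes differed in opposite directions. Activators were lower and repressors and PAR bZIP factors were higher in the high-number set. As a yardstick, limma called 467 of 12809 genes (3.65%) between the sets at an adjusted p of 0.05, 233 higher (1.82%) and 234 lower (1.83%) in the high-number set. On the slope it called 1510 (11.8%), 777 positive (6.07%) and 733 negative (5.72%). Since the sets were chosen with these values in view, nothing is read from those shares. The sets did not overlap for 383 genes that were higher (2.99%) and 427 that were lower (3.33%) at high numbers, 6.32% in all.

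Among the activators, Arntl, the obligate partner of CLOCK, was at 17.4, 16.998, 19.1, 6.26 and 4.84 FPKQ in libraries 20 to 24 and 3.82, 1.404, 1.29, 0.795 and 1.06 in libraries 25 to 29. Its mean was 12.9 ± 6.78 against 1.67 ± 1.22 (SD, n = 5 and 5), a log2 difference of -2.30 (SE 0.41). Libraries 20 to 22 were highest, 23 to 25 intermediate and 26 to 29 lowest, and the sets did not overlap. Npas2, which can replace CLOCK, was at 9.31, 7.402, 14.2, 5.29 and 5.04 in the low set and 3.82, 1.98, 1.500, 1.102 and 1.97 in the high set. Its log2 difference was -1.56 (SE 0.28), again without overlap. Clock itself was at 13.7, 12.6, 15.2, 11.1 and 11.2 and then 8.87, 8.21, 7.16, 6.21 and 6.16. It followed the same order with a smaller difference, -0.73 (SE 0.11). Nfil3, the repressor of D-box genes, was at 16.4, 14.2, 10.9, 4.04 and 5.91 and then 2.02, 1.93, 2.33, 3.44 and 1.59. Its sets did not overlap and differed by -1.66 (SE 0.33). Of the 7 genes in the list of activators and their phase, 4 were called lower and none higher between the sets, with a median log2 difference of -0.73 against -0.01 over all genes. Among the members not called, the sets overlapped for Rora (-0.18), a nuclear receptor gene, and for Cry1 (0.39), a repressor listed here because its peak is late.

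Of the 9 core repressors, 3 were called higher between the sets and none lower, 5 had sets that did not overlap, and all 9 differences were positive (median 0.69). Per3, a period gene, was at 4.28, 5.45, 3.196, 11.1 and 12.7 in the low set and 18.2, 24.3, 25.4, 29.99 and 32.4 in the high set. The value in library 22 was the lowest and that in library 29 the highest, and the log2 difference was 1.83 (SE 0.33). Ciart, a repressor of the ARNTL complex, was at 2.04, 2.48, 1.17, 5.67 and 7.33 and then 9.496, 12.4, 15.03, 14.8 and 25.6. The difference was 1.91 (SE 0.38), with no overlap. Bhlhe41 (DEC2), which binds E-boxes as a repressor, was at 2.98, 3.83, 3.51, 7.94 and 9.21 and then 12.4, 17.8, 16.5, 13.3 and 17.2. Its log2 difference of 1.44 (SE 0.26) was close to the 1.31 (SE 0.34) of its relative Bhlhe40 (DEC1), which was at 6.92, 6.35, 7.82, 22.98 and 20.3 and then 31.5, 28.3, 28.3, 26.9 and 29.9. In Bhlhe40 the step lay between libraries 22 and 23, inside the low set. Without libraries 20 and 21 no clock activator or repressor was called between the sets, while the list medians were -0.70 and 0.78. On the slope 3 activators were then called negative and 3 repressors positive, against 5 and 6 with all libraries.

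The period genes did not move as a block. Per2 was at 18.2, 18.8, 10.4, 16.8 and 21.6 and then 22.8, 22.8, 27.4, 30.7 and 36.2, a log2 difference of 0.69 (SE 0.18) without overlap. Per1, which also responds acutely to hormones and stress, was at 30.6, 20.6, 10.7, 16.97 and 14.4 and then 15.4, 22.1, 19.8, 17.6 and 39.4. It was high at both ends of the series, and its sets overlapped (0.28, SE 0.30). The nuclear receptor repressors also differed from each other: Nr1d2 was at 31.2, 35.2, 29.3, 46.9 and 52.2 and then 52.03, 61.7, 58.8, 54.7 and 62.2. Nr1d1 was at 96.5, 111, 81.995, 136 and 116 and then 136, 141, 127, 91.1 and 137, overlapping between the sets (0.22, SE 0.15). Cry2 overlapped as well, with a log2 difference of 0.19 (SE 0.11). With libraries 20 and 21 left out the differences were 0.61 for Per1, 0.06 for Cry2 and 0.86 for Bhlhe40.

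Among outputs, Dbp, which activates D-box genes, was at 27.96, 47.1, 31.04, 132 and 151 and then 192, 270.2, 258, 248 and 333. Its step between libraries 22 and 23 was larger than any later one, the sets did not overlap, and the log2 difference was 2.06 (SE 0.48). Tef was at 46.9, 49.8, 32.6, 68.3 and 61.2 and then 86.9, 108, 100.0, 102 and 119.8, a log2 difference of 1.02 (SE 0.17). Hlf was at 4.17, 3.74, 3.39, 8.79 and 7.12 and then 11.6, 20.4, 18.5, 19.2 and 19.3, a log2 difference of 1.60 (SE 0.24). All 3 PAR bZIP genes were therefore separated between the sets, and all were lowest in libraries 20 to 22. Tspan4, a tetraspanin, was at 35.3, 32.1, 33.3, 49.1 and 57.6 and then 63.2, 78.96, 90.6, 97.97 and 93.7, a log2 difference of 1.038 (SE 0.18). In the opposite direction, Leo1, a subunit of the PAF1 elongation complex, was at 6.49, 5.400, 7.34, 3.37 and 4.21 and then 2.52, 1.89, 2.45, 1.95 and 1.77, a log2 difference of -0.998 (SE 0.16). Ypel2 was at 11.3, 14.2, 15.4, 8.99 and 9.74 and then 8.49, 7.62, 6.33, 6.73 and 7.32, a log2 difference of -0.62 (SE 0.14). Of 11 outputs tested, 3 were called higher and 2 lower. The rest overlapped except Dbp: Usp2 (0.22), Wee1 (0.50), Por (-0.21), Nampt (-0.26) and Tsc22d3 (-0.34). Without libraries 20 and 21 none of the 11 was called between the sets, Por (0.16) and Tsc22d3 (0.07) turned positive, Wee1 was 0.83, Usp2 0.35 and Nampt -0.05. The difference of Dbp was then 1.57, and 1.26 with the adipocyte covariate. Lonrf3 was under the minimum. Among 11 tested kinases, ligases and phosphatases acting on clock proteins, none was called between the sets. In the annotation Per3 overlaps Camta1 on the same strand, and Dbp and Nr1d1 overlap Sphk2 and Thra on the other strand. How reads in shared sequence were counted is not given in the sources used here.

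**Figure D1:**
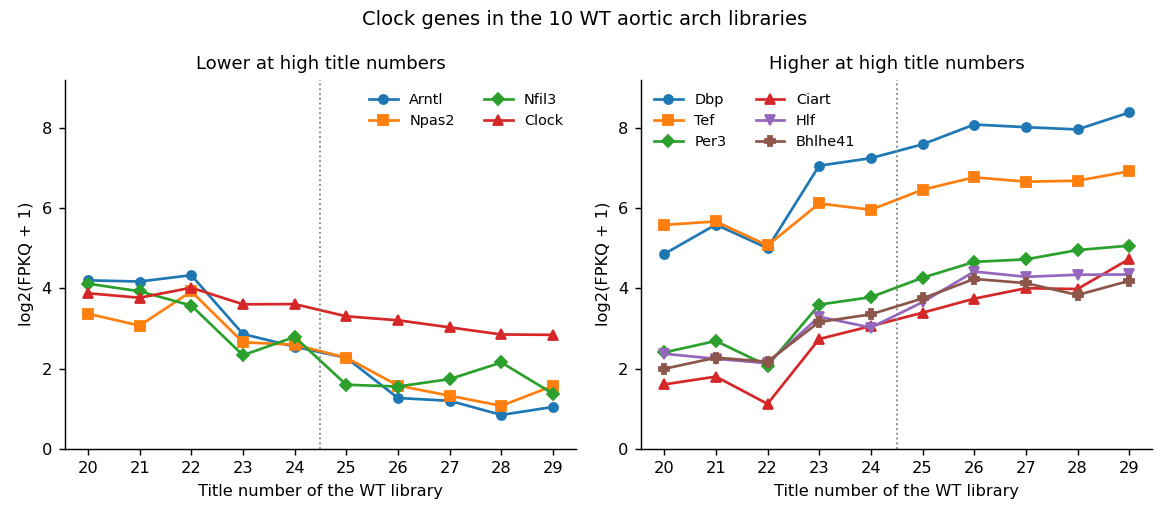
Levels of 10 clock genes, log2(FPKQ + 1), against the title number of the 10 WT libraries; each point is 1 library and the dotted line divides the sets. Arntl, Npas2, Nfil3 and Clock are lower, and Dbp, Tef, Per3, Ciart, Hlf and Bhlhe41 higher, in libraries 25 to 29 than in 20 to 24.

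Among all 12809 genes, few differences were large. At least 2-fold differences numbered 63 higher and 29 lower in the high-number set, of which 15 and 11 had sets that did not overlap. The median absolute fold of the 467 called genes was 1.33. Clock genes made up 6 of the 12 largest non-overlapping increases named (Dbp, Ciart, Per3, Hlf, Bhlhe41 and Bhlhe40) and 3 of the 12 largest decreases (Arntl, Nfil3 and Npas2), beside Tspan4 and Leo1 from the output list.

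Outside the clock, Nnat, an imprinted gene for a small membrane protein, was at 0.646, 0.911, 1.400, 0.644 and 0.522 and then 4.699, 7.54, 5.96, 4.69 and 7.36, a log2 difference of 1.95 (SE 0.16). It was at most 1.40 in each low-number library and above 4 in each high-number library, without intermediate values. Rcor2, a corepressor gene, had the same step: 2.67, 1.51, 2.29, 2.38 and 2.45 and then 7.35, 7.05, 5.71, 5.11 and 6.24, a log2 difference of 1.16 (SE 0.12). Ifit3, an interferon-induced gene, was at 3.73, 3.76, 5.05, 8.63 and 6.81 and then 9.19, 14.6, 18.8, 21.8 and 14.3, a log2 difference of 1.35 (SE 0.25). Of 15 tested interferon response genes, 2 were called higher and none lower (median 0.22), and none was called without libraries 20 and 21 (median 0.10). Tspan13 (1.13, SE 0.28) and the adipocyte carbonic anhydrase Car3 (1.60, SE 0.60) completed the largest increases. Without libraries 20 and 21, in which adipocyte markers were lowest, they differed by 0.69 and 0.74, and with the adipocyte level as a covariate by 0.49 and 0.25.

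Cdkn1a, the gene of the cell cycle inhibitor p21, was at 159, 100.4, 47.4, 42.2 and 31.8 and then 26.3, 21.9, 24.6, 20.01 and 15.6, a log2 difference of -1.53 (SE 0.41). Errfi1, a feedback inhibitor of the EGF receptor, was at 142, 42.2, 36.1, 27.6 and 20.7 and then 15.9, 19.9, 15.7, 14.9 and 19.5, a log2 difference of -1.24 (SE 0.44). In both genes library 20 was highest. Leaving out libraries 20 and 21, the differences were -0.87 for Cdkn1a and -0.66 for Errfi1, and with the adipocyte covariate -0.68 and -0.33. Rasl11a, a small GTPase gene, was at 19.6, 31.8, 33.1, 19.4 and 19.3 and then 14.5, 8.68, 9.44, 7.26 and 5.92, a log2 difference of -1.35 (SE 0.23). Hsph1, a heat shock chaperone, was at 41.4, 39.1, 50.2, 31.5 and 54.7 and then 22.02, 17.97, 24.9, 22.8 and 18.8, a log2 difference of -0.98 (SE 0.14). It was the one of 18 heat shock and cold-inducible genes called between the sets. Cirbp and Rbm3, induced by cooling, differed by -0.04 and 0.07. The remaining decreases were Olfr1033 (-1.35, SE 0.24), Wdr95 (-1.10, SE 0.21), Pip5k1b, a phosphoinositide kinase gene (-1.02, SE 0.16), and Haus8, an augmin subunit gene (-0.92, SE 0.15). Without libraries 20 and 21, Rasl11a (-1.31), Hsph1 (-1.03), Olfr1033 (-0.97), Wdr95 (-0.86) and Haus8 (-0.80) were no longer called between the sets. Pip5k1b (-0.77) still was.

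**Figure D2:**
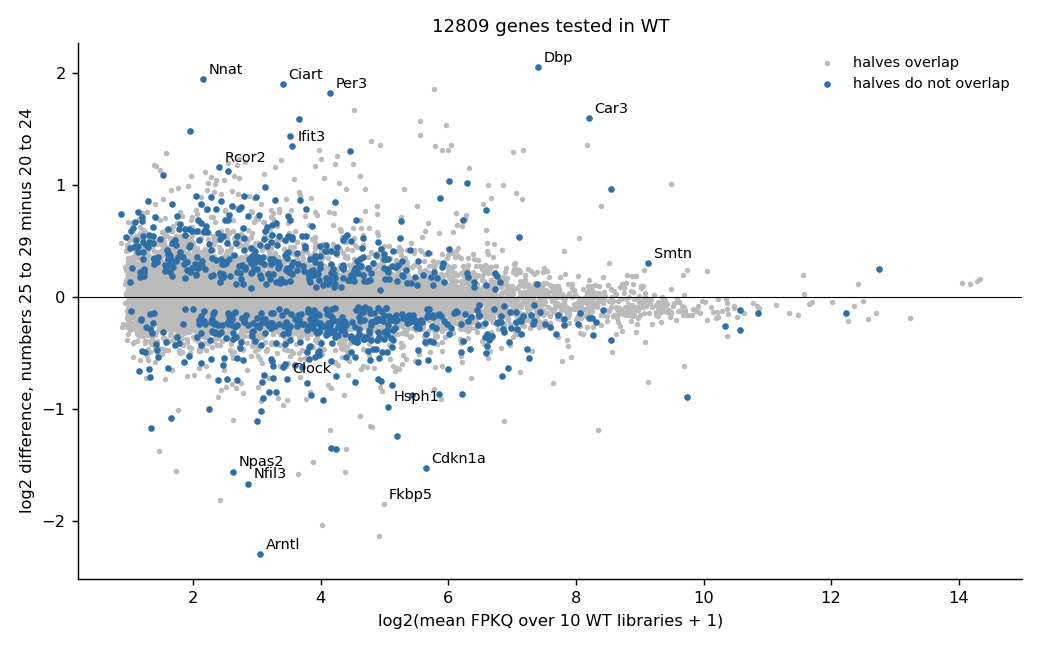
Log2 difference between the WT sets (high minus low title number, on the log2(FPKQ + 1) scale) against mean level, 1 point a gene for 12809 genes; blue marks genes whose sets do not overlap. Arntl lies lowest at -2.30 and Dbp highest at 2.06 among the genes whose sets do not overlap.

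Genes responsive to glucocorticoids, the adrenal hormones that have a daily rhythm, had mostly negative differences. Of 19 tested, 15 had negative differences (median -0.45), none was called between the sets, and on the slope 6 were called negative and 1 positive. Fkbp5, a receptor cochaperone and standard glucocorticoid target, was at 123, 79.3, 12.5, 36.97 and 10.3 and then 11.02, 9.64, 8.398, 6.94 and 8.91. Libraries 20, 21 and 23 were high, the other 7 lay between 6.94 and 12.5, and the sets overlapped (-1.85, SE 0.64). Zbtb16 had the same 3 high libraries, at 39.1, 30.3, 6.38, 13.9 and 4.203 and then 3.002, 5.07, 2.99, 3.31 and 6.27. When libraries 20 and 21 were left out, the difference of Fkbp5 was -0.86 and the median of the list -0.16, and with the adipocyte covariate they were -0.71 and -0.07.

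Adipocyte markers were low in libraries 20 and 21. Their summed level was 459, 855, 1238, 1807, 1995, 1972, 2059, 1619, 3589 and 2239.9 in libraries 20 to 29, lowest in 20 and highest in 28. Adipoq, the adiponectin gene, was at 3.85, 19.4, 40.1, 56.5 and 72.03 and then 64.8, 78.4, 52.5, 139.9 and 88.7. The brown fat gene Ucp1 was at 6.601, 38.01, 99.6, 171 and 248 and then 145, 156, 101, 252 and 205. Of 12 adipocyte markers, 11 were called positive on the slope and none between the sets. The median difference was 1.19 with all libraries and 0.42 without 20 and 21, and that of Ucp1 was 1.31 and 0.02. All 22 respiratory chain genes had positive differences (median 0.17, and 0.06 without 20 and 21), and none was called between the sets. The adipocyte covariate left 7 of the 22 positive (median -0.04) and gave a difference of -0.60 for Ucp1. With the adipocyte level as a covariate, the slope of Arntl was -0.44 (SE 0.07), and -0.44 (SE 0.04) without it, but 8 genes in all were called, Clock among them and Arntl not. On that slope 1 clock activator, 1 output and 0 repressors were called. Between the sets the covariate took the difference of Arntl from -2.30 to -1.67 and that of Nfil3 from -1.66 to -1.15. No member of these 3 clock lists was then called between the sets, while the activator and repressor medians were -0.61 and 0.67. Without libraries 20 and 21 the slope of Arntl was -0.45 (SE 0.06). In bulk tissue fewer cells of a type and less RNA per cell cannot be told apart.

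Endothelial markers had 15 positive differences of 15, with 4 called higher between the sets (median 0.53). None of the 15 was called without libraries 20 and 21 (median 0.39) or with the adipocyte covariate (median 0.30). Their summed level ran from 238 to 369 in the low-number set and 334 to 393 in the high-number set, and library 23 was the 1 low-number library within the range of the others. Cdh5, the VE-cadherin gene, was at 3.42, 4.76, 7.699, 11.8 and 7.59 and then 13.5, 12.4, 10.97, 14.7 and 12.9. Emcn, an endothelial sialomucin gene, was at 3.71, 6.05, 6.61, 6.198 and 6.55 and then 10.2, 7.99, 10.6, 15.3 and 13.9. Among genes of vascular tone and clotting, Vwf, the von Willebrand factor gene, was at 5.95, 5.11, 6.35, 8.68 and 5.82 and then 10.01, 9.43, 10.02, 11.8 and 10.97, and was called higher. Edn1, the endothelin gene, was at 4.39, 6.66, 5.32, 6.88 and 4.95 and then 2.64, 3.12, 3.59, 3.36 and 4.04, and was called lower. The other 22 tested members were not called between the sets.

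The contractile genes of smooth muscle had small differences: 1 of 22 was called higher and 1 lower, and 19 were negative (median -0.13). On the slope 5 were called negative and 1 positive, against 5.72% and 6.07% of all genes. Without libraries 20 and 21, 14 differences were negative (median -0.10), and 1 slope was called, a negative one. Smtn, the smoothelin gene, was at 487, 512, 494, 515 and 507 and then 583, 639, 641, 614 and 626, a log2 difference of 0.30 (SE 0.04). Its difference was small and its sets were well apart. Among matrix genes, Lox, the collagen and elastin crosslinking oxidase, was at 84.002, 80.7, 88.3, 54.6 and 71.7 and then 56.4, 32.9, 45.7, 33.3 and 33.5, a log2 difference of -0.91 (SE 0.17). Library 25 exceeded library 23, so the sets overlapped. It was the 1 call among 22 fibrillar matrix genes, and Mfap2 (0.37, SE 0.09) was the 1 call among 14 elastic fibre genes. Eln, the elastin gene, differed by -0.61 (SE 0.20) and was not called. Sost, the target of the antibody given to the diseased mice, was at 509, 682, 876, 599 and 768 and then 711, 641, 614, 591 and 559, and none of 16 sclerostin and Wnt genes was called.

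The other lists showed few calls. Of 24 immediate early genes 2 were called lower, among them Cyr61 (-1.11, SE 0.25), and of 19 sterol genes 1, Fdps (-0.48, SE 0.08). No member was called among 20 endoplasmic reticulum folding genes, 23 fasting and feeding genes, 11 proliferation genes, 13 macrophage markers, 7 heart muscle markers or 6 nerve markers. Of the folding genes, 18 had negative differences (median -0.22), while on the slope 2 were called positive and 0 negative. Their median was -0.28 without libraries 20 and 21, and -0.28 with the adipocyte covariate. Of 11 fibroblast markers 1 was called higher. Without libraries 20 and 21, Fosl2, an immediate early gene, was the 1 member of any of these lists or the vascular, contractile, matrix, elastic fibre and heat shock lists still called between the sets, and the fibroblast median turned from 0.21 to -0.11. Nnat, Rcor2 and Pip5k1b were also among the 10 genes called then. In the same setting the macrophage median turned from 0.17 to -0.21. That of the fasting and feeding genes turned from 0.13 to -0.12, and that of the vascular tone genes from 0.04 to -0.03. The heart muscle markers had a summed level of 33.5, 165, 102, 56.6, 45.5, 41.8, 61.02, 457, 198 and 155 in libraries 20 to 29, highest in library 27.

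**Figure D3:**
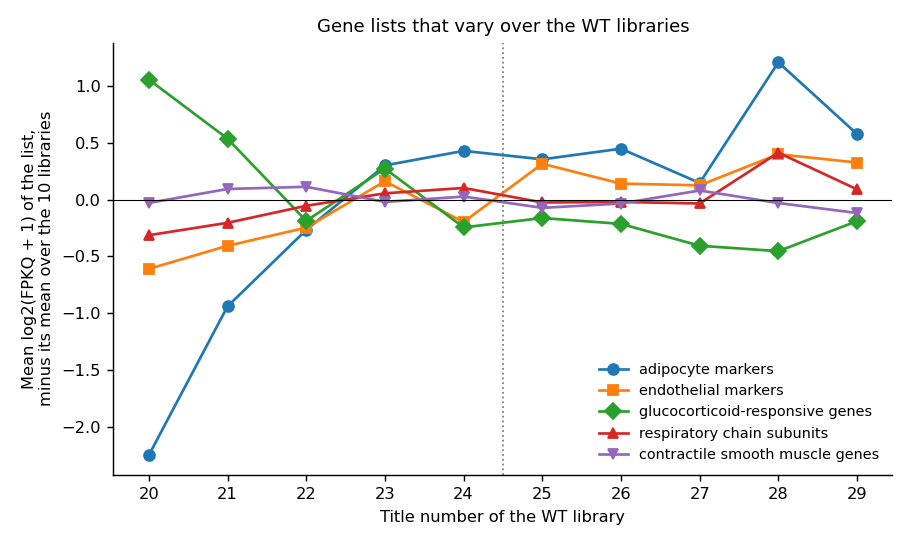
Mean log2(FPKQ + 1) of 5 gene lists in each WT library, minus the mean of the list over the 10 libraries, against title number; the dotted line divides the sets. Adipocyte markers are lowest and glucocorticoid-responsive genes highest in libraries 20 and 21, while contractile genes stay near 0.

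The libraries of the diseased mice had no part in the choice of sets, so the slope on the title number was tested in each diseased group with limma across all genes. In the Scl-Ab group, 162 of 13178 genes passed an adjusted p of 0.05 (1.23%), 66 rising (0.501%) and 96 falling (0.728%). In the vehicle group, limma called 0 of 13027 genes (0%), with 934 at an unadjusted p under 0.05.

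In the Scl-Ab group Arntl fell and Dbp rose with the number, as in WT. Arntl was at 4.02, 4.94, 2.17, 3.56, 1.67, 1.46, 0.918, 0.907, 0.899 and 1.403 in libraries 10 to 19, with a slope of -0.17 (SE 0.03) log2 per number and a limma adjusted p of 0.047. Dbp was at 90.7, 78.8, 122, 119, 156, 146, 167, 187, 185 and 156, with a slope of 0.12 (SE 0.02) and a limma adjusted p of 0.046. Tspan4 also rose, by 0.10 (SE 0.02) per number, with a limma adjusted p of 0.046. Cdkn1a fell, with a slope of -0.12 (SE 0.03) and a limma adjusted p of 0.048.

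Nr1d1 was at 101, 81.1, 83.7, 70.4, 76.2, 69.5, 76.7, 39.5, 53.4 and 46.4 in Scl-Ab libraries 10 to 19. It fell, with a slope of -0.12 (SE 0.02) and a limma adjusted p of 0.049. Its WT slope was 0.04. The difference between the groups was not tested. Per3 (0.16, SE 0.04, limma adjusted p = 0.064), Clock (-0.07, SE 0.02, limma adjusted p = 0.079), Cry1 (0.10, SE 0.02, limma adjusted p = 0.054) and Per2 (0.18, SE 0.05, limma adjusted p = 0.084) did not pass. All of these Scl-Ab calls were lost when some single libraries were left out. The number of genes called ranged from 0 (without library 10, 11, 12, 16 or 19) to 1035 (without library 13). Median ratio scaling gave 26 rising and 78 falling in place of 66 and 96. The count was 768 without library 15, 72 without 17, 19 without 14 and 1 without 18. The slope of Arntl stayed between -0.21 and -0.15 and that of Dbp between 0.10 and 0.15 when each library was left out.

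In the vehicle group Arntl and Dbp varied widely between libraries, and neither slope was called. Arntl was at 13.8, 14.7, 4.61, 5.29, 22.7, 12.6, 9.79, 8.02 and 10.02 in libraries 1 to 9, a slope of -0.02 (SE 0.08). Dbp was at 9.43, 9.06, 109.5, 90.2, 7.97, 17.9, 37.7, 59.5 and 39.9, a slope of 0.17 (SE 0.16). With SEs this wide, a slope as large as in the Scl-Ab group cannot be told from none. Libraries 3 and 4 were low for Arntl and high for Dbp, and libraries 1, 2 and 5 were the reverse. The 2 genes were opposed in these libraries too, which did not run in order of number.

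**Figure D4:**
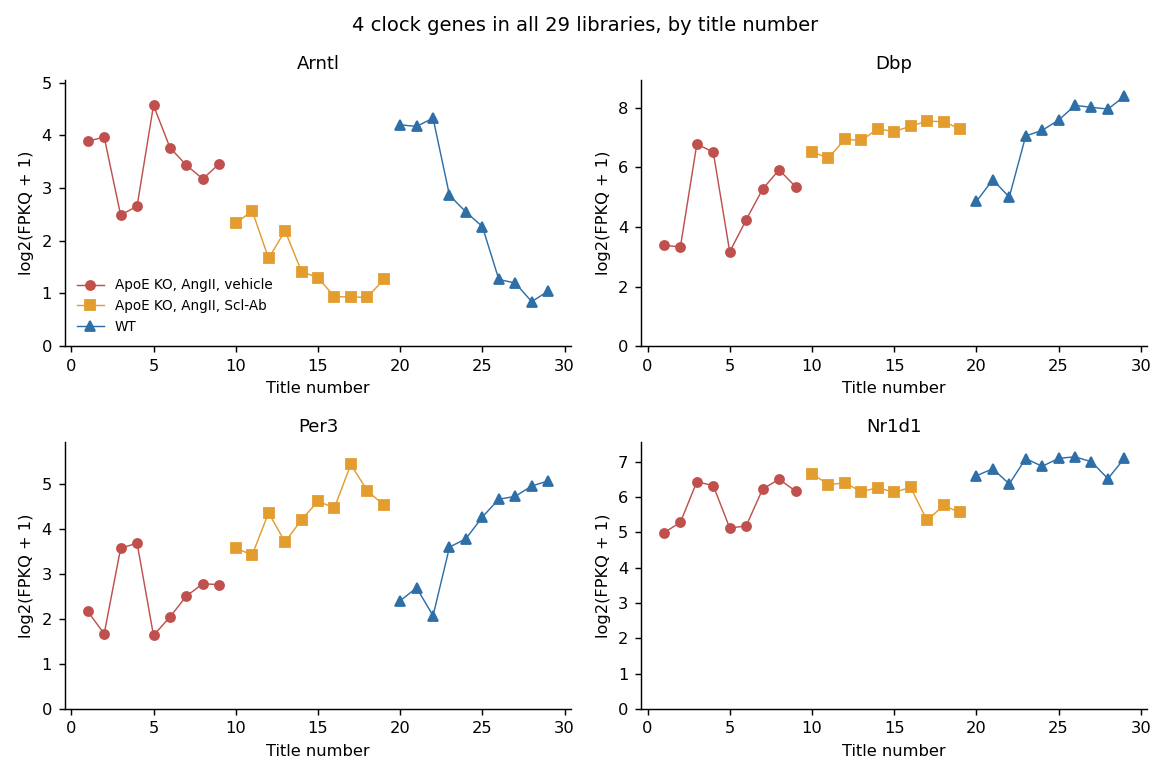
Arntl, Dbp, Per3 and Nr1d1, log2(FPKQ + 1), in all 29 libraries against title number, 1 point a library, coloured by group. Arntl is lower and Dbp higher at larger numbers in the WT and Scl-Ab libraries, whereas in the vehicle libraries 3 and 4 stand apart from their neighbours.

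Across genes, the WT pattern as a whole was not repeated by number in the diseased groups. The WT slopes were negatively correlated with those of the vehicle group (r = -0.40, 12401 genes) and of the Scl-Ab group (r = -0.42, 12470 genes). Of the WT genes called on the slope, 486 of 1477 (32.9%) had the same sign in the vehicle group and 519 of 1480 (35.1%) in the Scl-Ab group, against 41.4% and 37.1% of all genes. In the Scl-Ab group 28 were called with the same sign and 25 with the opposite sign. Adipocyte markers had a median slope of 0.29 in WT, -0.15 in the vehicle group and -0.22 in the Scl-Ab group. Endothelial markers had 0.10, -0.006 and -0.13. In the Scl-Ab group 7 of the 15 passed the adjusted threshold, all falling. An unadjusted limma p under 0.05 was found for 14 of the 15, against 3508 of 13178 genes in all. All 22 respiratory chain genes were also under it in that group. Clock activators had negative medians in all 3 groups: -0.13, -0.03 and -0.07. Clock repressors had positive ones: 0.13, 0.05 and 0.04. Clock outputs, a list with members in both directions, had 0.03, 0.004 and -0.03. Glucocorticoid-responsive genes had -0.10, -0.03 and -0.13. The differences between groups in these medians were not tested.

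**Figure D5:**
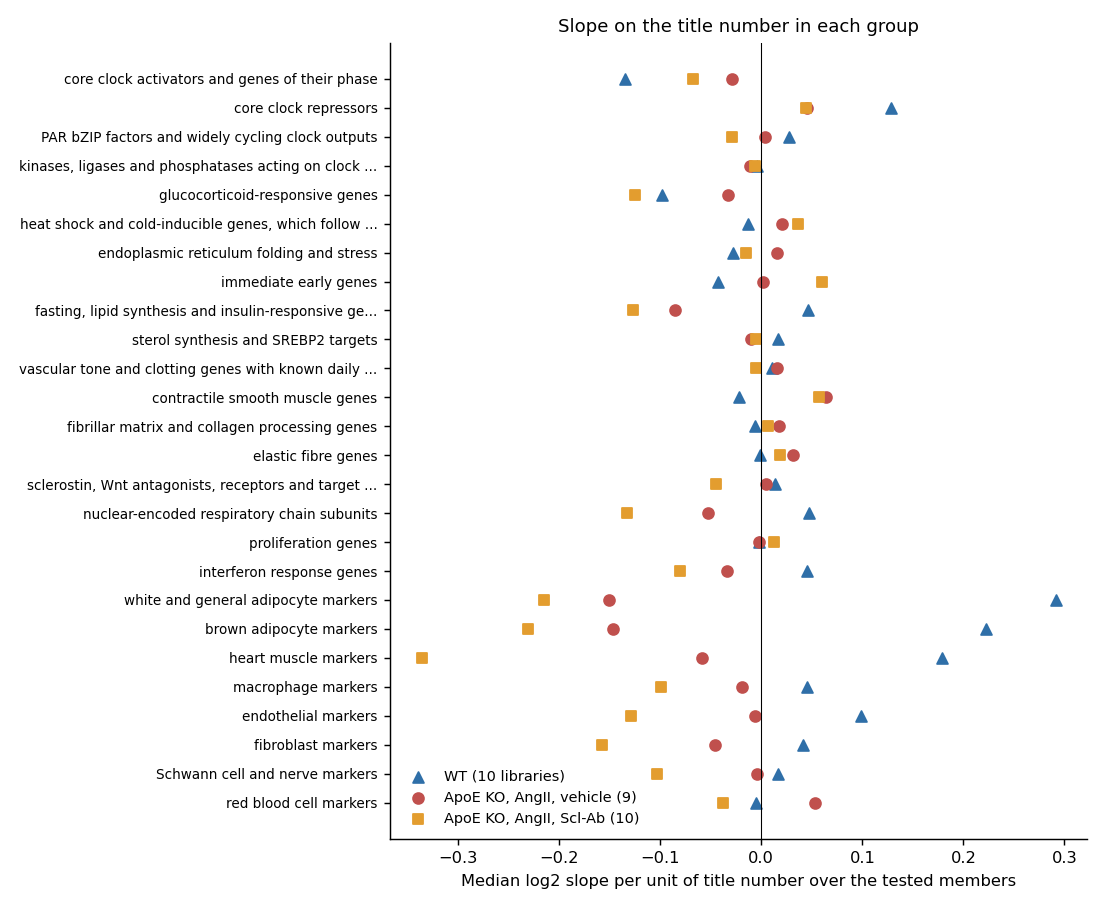
Median slope on the title number, in log2 per unit, over the tested members of each gene list (at least 5 members), with 1 symbol for each group of libraries. Adipocyte markers have a positive median in WT (0.29) and negative medians in both diseased groups, while clock activators are negative and clock repressors positive in all 3.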

How the data were processed

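RNA was measured by stranded mRNA sequencing of aortic arch. Per the labels' protocols, samples needed at least 80 ng of RNA and an RNA integrity number of at least 7. The authors deposited 1 table per library with FPKQ, treated here as FPKM. The submitters' processing notes list GRCm38 and DESeq2 1.10.1 without their roles. For the aligner, the counter and the gene annotation, nothing is given in the sources used here. Depth is unknown, so no counting interval is given.

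Values were tested as log2(FPKQ + 1) with limma 3.58.1 (trend and robust moderation, R 4.3.3) and Benjamini-Hochberg adjustment, on genes with at least 1 in at least 5 libraries of the fit. A fold on this scale understates changes of low genes. Each group was fitted alone. The fit was also run on simulated data in which genes were drawn independently. Such data lack variation shared by many genes, so that run cannot vouch for the counts given here. Members and gene lists were chosen with earlier results of these data known. Named genes are the clock lists, the 12 largest increases and 12 largest decreases among genes without overlap and a higher-set mean of 5 or more (gene models with provisional names passed over), and the member of each other list with the largest difference. Some genes that this rule names are not reported here. Promoters came from RefSeq, in which 9467 of 12809 tested genes matched. The set of motifs changed while the work was under way: 5 forms were searched first and TAGGTCA was added after their shares were seen. Alternatives covered pseudocount, filter, scaling, moderation, an adipocyte covariate, all 29 libraries in 1 fit, and leaving out libraries. The adipocyte covariate was run only in WT, and the fit of all 29 libraries only for the WT sets. Slopes in the diseased groups were not adjusted for adipocyte level. Leaving out 20 and 21 together was chosen after seeing the data.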

Additional observations from a re-analysis of the deposited data

Results flagged for a closer look

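In groups of 5 WT libraries, 10 of 124 tested gene and set combinations had 1 library far from the other 4. The nominal rate of 1 in 20 is no yardstick for this count. Some of the genes were chosen on these same libraries, and the values were not log-transformed. No excess is read from it. In the high-number set, library 25 had the highest Arntl, at 3.82 FPKQ against at most 1.40 in the others, and the lowest Hlf, at 11.6 against at least 18.5. Library 29 had the highest Per1, at 39.4 against at most 22.1. Library 28 had the lowest Nr1d1, at 91.1 against at least 127, the highest Ucp3, at 8.27 against at most 4.53, and the highest Uqcrc1, at 119 against at most 90.4. Library 26 had the highest Cyr61, at 97.2 against at most 68.2, and the highest Sfrp4, at 90.6 against at most 48.6. In the low-number set, library 20 had the highest Tsc22d3, at 59.8 against at most 23.1, and the highest Errfi1, at 142 against at most 42.2.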

How the results depend on the processing

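The number of genes called between the WT sets was 467. It was 60 with no filter, 68 with all 29 libraries in 1 fit, 8 with an adipocyte covariate and 10 without libraries 20 and 21. Leaving out 1 library gave 58 (without 29) to 1169 (without 23), with 63 without 26, 71 without 21, 87 without 27, 103 without 28, 220 without 20 and 233 without 22. On the WT slope, 1510 calls became 824 with no filter, 8 with the adipocyte covariate and 142 without 20 and 21. Leaving out 1 library gave 502 (without 20) to 1668 (without 23), with 627 without 21 and 628 without 28. The Scl-Ab slope gave 162 calls, 0 with no filter, 104 with median ratio scaling (26 rising and 78 falling, against 66 and 96) and 10 with equal sums, and 0 to 1035 with 1 library left out. The vehicle slope gave 0 calls under each setting run. The cause of these changes was not tested. Of 62 named genes, 55 kept their WT direction in every setting. The difference of Pparg was 0.76 and reversed to -0.22 with the adipocyte covariate. No paired analysis was possible because the title numbers are not shared between groups. Depth in reads is unknown, which limits what can be said of low genes.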
